A study of Homo sapiens with 6 samples.

Results

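The genes described here encode the aminoacyl-tRNA synthetases of the cytosol and of the mitochondria, measured in T3M4 cells. They were chosen by gene name alone, 20 genes counted as cytosolic and 16 as mitochondrial, and all 36 were found among the 58735 genes of the deposited count table. All 36 also passed the filter on low counts, which left 16655 genes to be tested. T3M4 is an established human cell line of pancreatic ductal adenocarcinoma, and the cells were left untreated and harvested near confluence from DMEM with serum. The 3 libraries with the genotype MUC16 knockout are titled T3M4M16, and the 3 they were set against, with the genotype MUC16 expressing, are titled T3M4WT. MUC16 is a very large mucin of the epithelial surface, and the series asks how its presence bears on gene expression. How the knockout was made and whether its cells are 1 clone is not given in the labels, nor are separate cultures stated for the replicates, so the p-values reflect how far these samples vary, and that variation may be technical alone.

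An aminoacyl-tRNA synthetase joins an amino acid to the tRNAs that carry its anticodons, and so sets the genetic code for the ribosome. Mitochondria have their own ribosomes and tRNAs, and most of their synthetases are encoded by nuclear genes separate from those of the cytosolic enzymes and imported as proteins. The exceptions are lysine and glycine, for which KARS and GARS each give both forms, so the counts of these genes hold transcripts for both compartments. In the cytosol several synthetases sit together with scaffold proteins in the multi-synthetase complex. Many cytosolic synthetase genes are known targets of the transcription factor ATF4 in the amino acid response.

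The libraries labelled knockout held 19088927 to 28612621 counts and the libraries labelled WT 22963814 to 27647455. MUC16 itself went against the labels at the RNA level. It had 292, 504 and 323 counts in the libraries labelled knockout and 98, 144 and 90 in the libraries labelled WT, a log2 fold change of 1.79 ± 0.17 (SE, adjusted p = 4.79e-09 by edgeR's quasi-likelihood test with Benjamini-Hochberg adjustment). Directions are therefore given by label. Gene counts cannot show whether a transcript was edited. The epithelial keratin KRT8 had 1453 ± 44.6 CPM in the libraries labelled knockout and 737.4 ± 8.65 CPM in the libraries labelled WT (SD, n = 3 each). The libraries labelled knockout had higher levels of all 6 epithelial markers examined. The mucin gene MUC1 rose most of these (log2 fold change 2.61), with 99.2 ± 1.26 CPM in the libraries labelled knockout and 16.2 ± 1.93 CPM in those labelled WT. Over all genes tested 26.7% were called higher, which stands beside this count and the marker counts that follow. Of 4 leukocyte markers 3 failed the filter and CD14 did not pass the test, and of 6 fibroblast markers 4 failed the filter and COL1A1 was higher (42.2 ± 2.26 CPM in the libraries labelled knockout and 31.4 ± 1.92 CPM in the libraries labelled WT). Of 4 endothelial markers CDH5, VWF and PECAM1 were higher, with means of 2.10, 0.720 and 17.8 CPM in the libraries labelled knockout against 0.721, 0.264 and 13.9 CPM in the libraries labelled WT. From the same lists PTPRC, CD3E, COL1A2, COL3A1 and KDR had at most 8 counts in any library. The part of these markers in the results was not tested.

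Transcripts of both groups of synthetases were lower in the libraries labelled knockout, by modest amounts. Of the 20 cytosolic genes 13 fell, 2 rose and 5 did not pass the test, with a median log2 fold change of -0.20. Of the 16 mitochondrial genes 10 fell, 1 rose and 5 did not pass, with the same median of -0.20. Over all genes tested 25.9% were called lower and 26.7% higher, 52.6% in all, with a median of 0.00 (edgeR quasi-likelihood test, Benjamini-Hochberg adjusted p threshold 0.05 over the 16655 genes). Only MARS2 and SARS2 changed by at least 1.5-fold, both lower. Well-expressed genes fell more often in general. Among the 4780 genes with a mean of at least 50 CPM (counts scaled to a common library size with TMM factors), 48.3% were called lower and 21.9% higher, with a median of -0.10, and all 20 cytosolic genes and 8 of the mitochondrial genes lay above that level. Of those 8 mitochondrial genes 6 fell. With cyclic loess, a scaling that varies with expression level, the cytosolic counts were 9 lower and 4 higher with a median of -0.09, and the mitochondrial counts 8 lower and 2 higher with a median of -0.16. The RNA was pooled over many cells, so a lower level in some cells and a lower level in all of them cannot be told apart, and CPM, a share of each library, does not give the amount per cell.

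**Figure D1:**
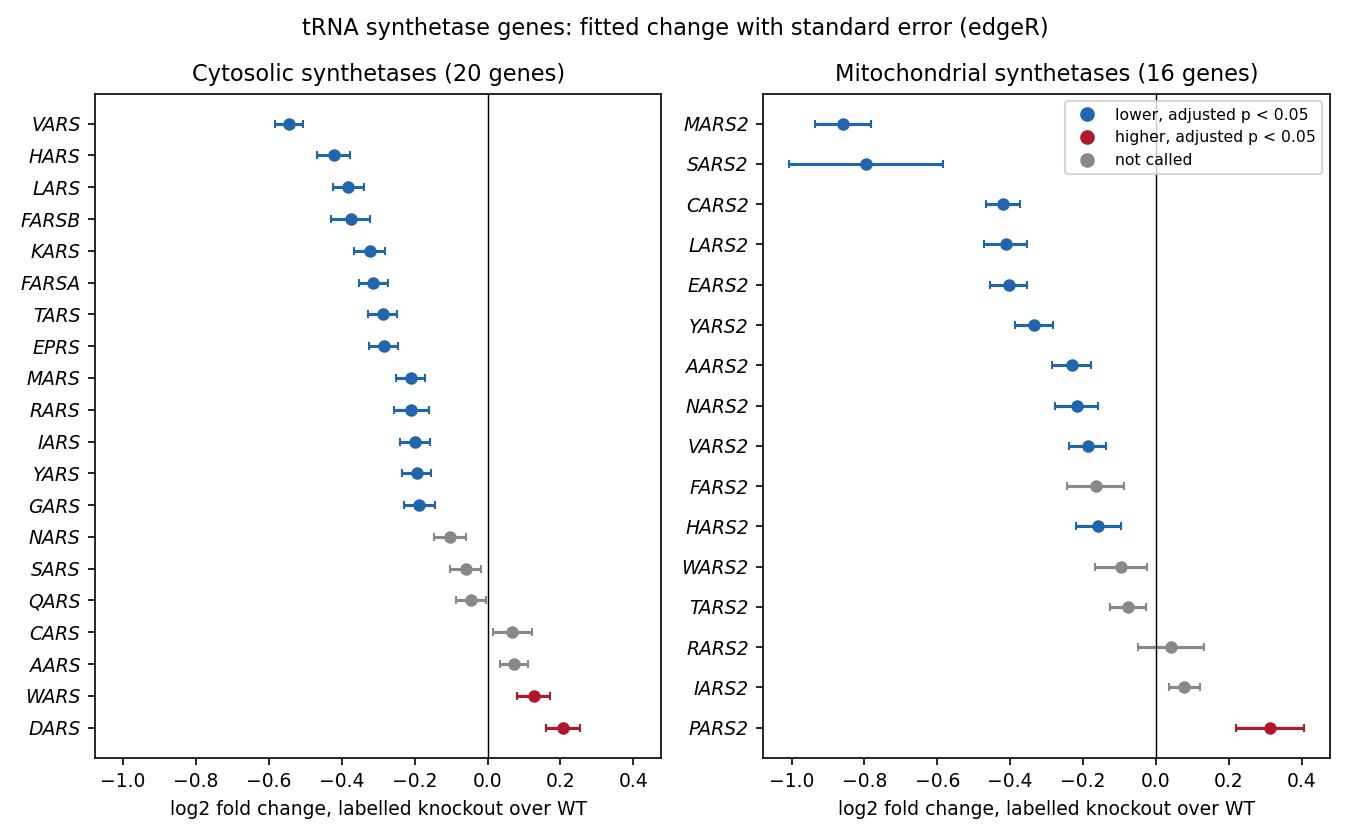
Fitted log2 fold change (points) with its standard error (bars) of each cytosolic gene (left panel) and each mitochondrial gene (right panel), libraries labelled knockout over those labelled WT, coloured by call. Most points lie left of 0 in both panels, from -0.54 for VARS and -0.86 for MARS2 up to 0.21 for DARS and 0.31 for PARS2.

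Most enzymes of the multi-synthetase complex fell. Of its 8 enzymes 6 were lower, 1 was higher and 1 did not pass (median -0.21). Among all genes of at least 50 CPM, 48.3% were called lower and 21.9% higher. EPRS, which joins the glutamate and proline activities in a single protein, had 299, 290 and 304 CPM in the libraries labelled knockout and 375, 351 and 361 CPM in the libraries labelled WT. All its knockout values lay under all its WT values, and it fell by 0.29 on the log2 scale (SE 0.04, adjusted p = 2.81e-06, edgeR). The leucine enzyme LARS (-0.38 ± 0.04, SE) and the lysine enzyme KARS (-0.32 ± 0.04) fell most, and the enzymes for methionine, MARS (-0.21), arginine, RARS (-0.21), and isoleucine, IARS (-0.20), fell less. The glutamine enzyme QARS did not pass (-0.05, adjusted p = 0.37, edgeR), and its sign turned with upper-quartile factors (0.01) and with cyclic loess (0.06). With cyclic loess RARS (adjusted p = 0.0613) and IARS (adjusted p = 0.132) were no longer called.

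DARS, the aspartate enzyme of the same complex, went the other way. It had 103, 97.3 and 103 CPM in the libraries labelled knockout and 85.5, 88.3 and 88.9 CPM in the libraries labelled WT. The groups did not overlap, as was true of 59.0% of all genes tested, and the log2 fold change was 0.21 ± 0.05 (SE, adjusted p = 0.000571, edgeR). DARS shares 7.6% of its exon bases with the antisense gene DARS-AS1, which averaged 44.3 counts per library, and the library kit named in the labels does not mark strand.

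Of the 12 cytosolic enzymes outside the complex 7 were lower, 1 was higher and 4 did not pass (median -0.19). This stands beside 48.3% lower and 21.9% higher among all genes of at least 50 CPM. VARS, the valine enzyme (ENSG00000204394, GRCh38 chromosome 6, 31777518 to 31795953, minus strand), fell most of all cytosolic genes. It had 298, 304 and 298 CPM in the libraries labelled knockout and 438, 436 and 438 CPM in the libraries labelled WT. The spread within each group was far smaller than the distance between them, and VARS fell by 0.54 on the log2 scale (SE 0.04, adjusted p = 3.14e-11, edgeR). HARS, the histidine enzyme, had 77.7, 77.9 and 77.6 CPM in the libraries labelled knockout and 103, 103 and 106 CPM in the libraries labelled WT, a log2 fold change of -0.42 ± 0.04 (SE, adjusted p = 3.37e-08, edgeR). Both subunits of the phenylalanine enzyme, which works as a tetramer of paired chains, fell, FARSA by 0.31 and FARSB by 0.38 on the log2 scale. The threonine enzyme TARS (-0.29), the tyrosine enzyme YARS (-0.19) and the glycine enzyme GARS (-0.19) were also lower, the last of these and YARS not with cyclic loess (adjusted p = 0.107 for each).

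WARS, the tryptophan enzyme, whose gene is known to be induced by interferon gamma, had 134, 120 and 128 CPM in the libraries labelled knockout and 116, 117 and 117 CPM in the libraries labelled WT. The lowest knockout value stood just above the highest WT value, and the log2 fold change was 0.13 ± 0.05 (SE, adjusted p = 0.0259, edgeR). That call was lost without KO replicate 1 (adjusted p = 0.192), without WT replicate 1 (0.0642), without WT replicate 2 (0.0634), without WT replicate 3 (0.0741) and with no filter (0.0673). The alanine enzyme AARS (0.07, adjusted p = 0.118), the cysteine enzyme CARS (0.07, adjusted p = 0.297) and the serine enzyme SARS (-0.06, adjusted p = 0.248) did not pass. The sign of SARS turned with cyclic loess (0.05). AARS passed as higher with upper-quartile factors (adjusted p = 0.00711), with the stricter filter (0.0288) and with cyclic loess (0.000142), and CARS with cyclic loess (0.0453). The asparagine enzyme NARS narrowly missed the threshold and was not called (-0.10, adjusted p = 0.0504). It was called lower without KO replicate 3 (adjusted p = 0.027), with DESeq2 size factors (0.0424) and without chromosome 5 (0.0348).

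Among the mitochondrial enzymes the methionine enzyme MARS2 (ENSG00000247626, GRCh38 chromosome 2, 197705369 to 197708387, plus strand) fell most. It had 14.6, 15.1 and 14.7 CPM in the libraries labelled knockout and 28.2, 25.4 and 27.1 CPM in the libraries labelled WT. No knockout library came near the WT range, and the log2 fold change was -0.86 ± 0.08 (SE, adjusted p = 1.99e-09, edgeR). The cysteine enzyme CARS2 (-0.42 ± 0.05, SE), the leucine enzyme LARS2 (-0.41 ± 0.06), the glutamate enzyme EARS2 (-0.40 ± 0.05) and the tyrosine enzyme YARS2 (-0.33 ± 0.05) followed. The enzymes for alanine, AARS2 (-0.23), asparagine, NARS2 (-0.22), and valine, VARS2 (-0.19), fell by less. VARS2 shares 22.0% of its exon bases with GTF2H4 on the same strand, and was not called with cyclic loess (adjusted p = 0.0533).

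The serine enzyme SARS2 had the lowest level of the 36 genes. It had 26, 44 and 51 counts in the libraries labelled knockout and 78, 76 and 58 counts in the libraries labelled WT, which gave 1.33, 1.71 and 1.74 CPM against 2.96, 2.82 and 2.60 CPM. The groups did not overlap, and the log2 fold change was -0.79 ± 0.21 (SE, adjusted p = 0.00297, edgeR). SARS2 shares 46.2% of its exon bases with the gene AC011455.2 on the same strand and 10.8% with MRPS12 on the other strand. MRPS12 averaged 1405.8 counts per library and AC011455.2 0.0, and the library kit does not mark strand. How reads in shared bases were counted is not given, so the level and the change of SARS2 are uncertain.

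PARS2, the proline enzyme of mitochondria, was the only mitochondrial gene called higher. It had 15.97, 14.2 and 16.8 CPM in the libraries labelled knockout and 13.1, 13.0 and 11.7 CPM in the libraries labelled WT. The groups did not overlap, and the log2 fold change was 0.31 ± 0.09 (SE, adjusted p = 0.00711, edgeR). EARS2 and PARS2 carry in mitochondria the activities that EPRS joins in the cytosol, and PARS2 rose while EPRS and EARS2 fell. HARS2, the histidine enzyme, had 48.1, 50.2 and 47.4 CPM in the libraries labelled knockout and 56.6, 56.8 and 48.9 CPM in the libraries labelled WT. WT replicate 3 stood within the range of the knockout libraries, and the call (log2 fold change -0.16, adjusted p = 0.0328, edgeR) was lost without KO replicate 1 (0.0804), KO replicate 3 (0.0902), WT replicate 1 (0.117) or WT replicate 2 (0.14), and also with the stricter filter (0.0697), upper-quartile factors (0.171) and cyclic loess (0.203). The phenylalanine enzyme FARS2 (-0.17, adjusted p = 0.0821) was called only without WT replicate 3 (0.023), and the tryptophan enzyme WARS2 (-0.10), the threonine enzyme TARS2 (-0.08) and the arginine enzyme RARS2 (0.04) did not pass. RARS2 changed sign without KO replicate 1 (-0.04) and without WT replicate 3 (-0.01). IARS2, the isoleucine enzyme, did not pass either (0.08, adjusted p = 0.136), but was called higher with upper-quartile factors (adjusted p = 0.0122), the stricter filter (0.0407) and cyclic loess (0.00113).

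**Figure D2:**
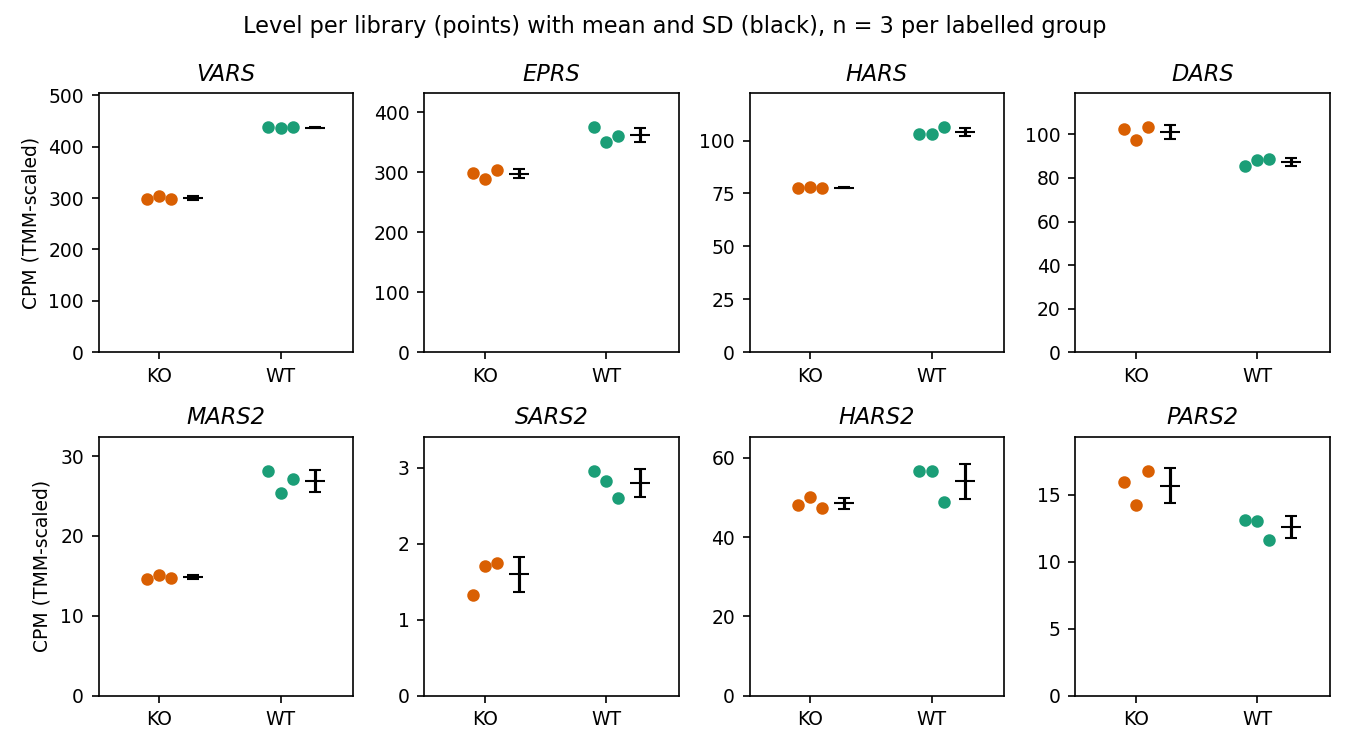
Level of 8 synthetase genes in CPM in each library (points), knockout left of WT, with the mean and SD of each group in black (n = 3 each); the y axis starts at 0. VARS, EPRS, HARS, MARS2 and SARS2 lie lower in the libraries labelled knockout, DARS and PARS2 higher, and HARS2 overlaps.

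Compared per length, the order of the cytosolic genes differed between the groups of libraries. Levels per length are CPM per kilobase of merged exons, which depends on the annotated exons and is a rough scale. In the libraries labelled knockout AARS was highest with 72.9 ± 0.98 CPM per kilobase, followed by TARS (67.1 ± 2.11) and KARS (65.6 ± 2.88). In the libraries labelled WT KARS (82.1 ± 2.10) and TARS (82.0 ± 2.15) were highest and did not differ beyond their spread, FARSA (72.8 ± 0.50) and VARS (71.9 ± 0.19) came next, and AARS stood at rank 5 with 69.3 ± 1.14 (SD, n = 3 each). CARS was lowest of the cytosolic genes in both, and under most of the mitochondrial genes, with 5.53 ± 0.18 in the libraries labelled knockout and 5.27 ± 0.15 in the libraries labelled WT. Of the mitochondrial genes IARS2 was highest, with 47.9 ± 2.28 in the libraries labelled knockout and 45.4 ± 0.87 in the libraries labelled WT, above YARS2 (23.4 ± 0.55 and 29.5 ± 0.84), and SARS2 was lowest (0.494 ± 0.071 and 0.865 ± 0.056).

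Summed over genes, the cytosolic and the mitochondrial transcripts fell by much the same share. The 20 cytosolic genes took 3854 ± 70.9 CPM in the libraries labelled knockout and 4474 ± 65.5 CPM in the libraries labelled WT. The 16 mitochondrial genes took 784.4 ± 10.4 CPM in the libraries labelled knockout and 890.8 ± 14.8 CPM in the libraries labelled WT. The mitochondrial sum leans on IARS2, which was not called and had the highest level of these genes. It had 199.7 ± 9.49 CPM in the libraries labelled knockout and 189.3 ± 3.64 CPM in the libraries labelled WT. The ratio of the sums was 5.01, 4.80 and 4.93 in the libraries labelled knockout and 5.03, 4.92 and 5.12 in the libraries labelled WT, and the groups overlapped.

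The ratios for single amino acids went in both directions. For 16 pairs of a cytosolic and a mitochondrial gene, with EPRS set against both EARS2 and PARS2, the ratio of their counts was taken within each library, where library scaling cancels. In 8 pairs the ratio was higher in every library labelled knockout than in any labelled WT, in 6 it was lower in every one, and in 2 pairs, LARS with LARS2 and FARSA with FARS2, the groups overlapped. An exact two-sided permutation test of 3 against 3 libraries cannot go below p = 0.10, which each of the 14 pairs reached (adjusted p = 0.114 over the 16 pairs), so none passes a threshold of 0.05. How often the ratios of unrelated gene pairs would part in this way was not tested. Single genes did not overlap between the groups for 18 of the 20 cytosolic and 11 of the 16 mitochondrial genes, against 59.0% of all genes tested, and the mitochondrial share is near that of all genes.

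The methionine pair moved most toward the cytosolic form among pairs with good counts. MARS over MARS2 was 17.0, 16.1 and 15.9 in the libraries labelled knockout and 9.77, 11.02 and 10.5 in the libraries labelled WT, a log2 difference of 0.65. CARS over CARS2 was 0.680, 0.648 and 0.676 in the libraries labelled knockout and 0.482, 0.485 and 0.459 in the libraries labelled WT, and CARS was the only cytosolic gene with fewer counts than its partner. SARS over SARS2 had a larger log2 difference (0.76), with the low counts of SARS2 in its denominator. The ratio was also higher in the libraries labelled knockout for AARS (0.31), WARS (0.22), YARS (0.14), EPRS with EARS2 (0.12) and NARS (0.11), as log2 differences. In the NARS pair the groups barely parted, with a lowest ratio of 2.80 in the libraries labelled knockout and a highest of 2.79 in those labelled WT.

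The opposite shift was largest for proline. EPRS over PARS2 was 18.7, 20.3 and 18.1 in the libraries labelled knockout and 28.7, 26.9 and 31.0 in the libraries labelled WT, a log2 difference of -0.60. VARS over VARS2 was 5.20, 5.42 and 5.26 in the libraries labelled knockout and 6.91, 6.55 and 6.89 in the libraries labelled WT (log2 difference -0.36). IARS (-0.27), HARS (-0.27), RARS (-0.25) and TARS (-0.21) also lost ground to their mitochondrial partners.

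**Figure D3:**
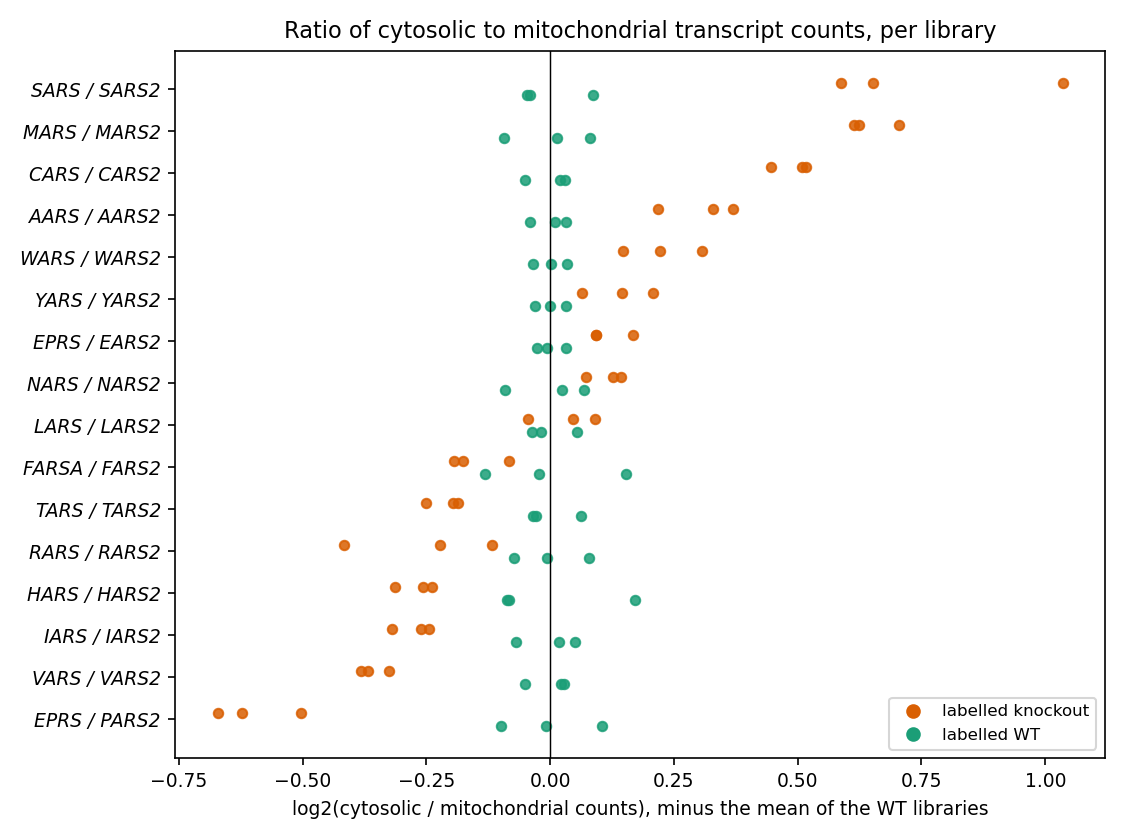
Log2 ratio of cytosolic to mitochondrial counts for each pair, per library, with the mean of the libraries labelled WT set to 0; orange points are the libraries labelled knockout and green points those labelled WT. The pairs run from EPRS over PARS2, at -0.60 on average in the libraries labelled knockout, to SARS over SARS2 at 0.76.

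Promoter letters known from the amino acid response were found mainly in cytosolic windows. RefSeq windows from 250 bases before to 50 bases after the gene start (GRCh38.p14) were matched for 30 of the 36 genes, by their present symbols, 16 cytosolic and 14 mitochondrial. DARS, LARS, VARS, YARS, AARS2 and VARS2 were not matched. For each matched gene the first listed window was used, whose start can differ from that of the gene in GENCODE 29. The core of the composite element bound by C/EBP and ATF factors, through which ATF4 acts, was searched as TGATGNAA and its reverse complement TTNCATCA. It was found in 6 of the 16 cytosolic windows and 1 of the 14 mitochondrial windows, and in 3.62% of all 34943 windows of this length. The matches, in capitals with 11 flanking bases on each side, are printed 5′ to 3′ along the strand of each gene with their GRCh38.p14 positions, because the 6 cytosolic ones share the same 8 bases.
AARS (chr16:70289675-70289704, minus strand): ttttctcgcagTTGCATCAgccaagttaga
CARS (chr11:3057407-3057436, minus strand): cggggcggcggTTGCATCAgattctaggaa
IARS (chr9:92293692-92293721, minus strand): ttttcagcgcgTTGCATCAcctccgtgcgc
MARS (chr12:57488053-57488082, plus strand): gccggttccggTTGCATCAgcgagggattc
TARS (chr5:33440956-33440985, plus strand): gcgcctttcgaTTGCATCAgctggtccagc
NARS (chr18:57621804-57621833, minus strand): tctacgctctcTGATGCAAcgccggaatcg
YARS2 (chr12:32756076-32756105, minus strand): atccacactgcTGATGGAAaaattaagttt
All 6 cytosolic matches read TTGCATCA on one of the strands, and 5 of them, all but that of AARS, start within 14 bases of the RefSeq start. The MARS window lies inside its GENCODE 29 gene, which starts at 57475445.

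The cytosolic genes with this match spanned those that fell and those that did not. TARS (-0.29), MARS (-0.21) and IARS (-0.20) fell, while NARS (-0.10), CARS (0.07) and AARS (0.07) did not pass, a median of -0.15. The 10 cytosolic genes with a window and no match had a median of -0.25, with 7 lower and 1 higher. The E-box CACGTG, the same on both strands and bound by MYC among other factors, was found in 1 cytosolic window, that of IARS, in 3 mitochondrial windows, those of CARS2, EARS2 and MARS2, and in 7.23% of all windows. These 3 mitochondrial genes all fell (median -0.42), and of the 11 mitochondrial genes with a window and no E-box 5 fell and 1 rose (median -0.16), against 25.9% lower over all genes. The cytosolic genes showed no such difference. IARS fell by 0.20, and of the 15 cytosolic genes with a window and no E-box 9 fell and 1 rose (median -0.21). Whether the E-box bears on these changes was not tested. The CARS2 window (chr13:110706466-110706765, minus strand) lies inside its GENCODE 29 gene, which starts at 110713603. Whether its E-box belongs to a promoter used in these cells is therefore not known. The window of MARS2, the gene with the largest fall, is printed with its E-box in capitals.
MARS2 (chr2:197705119-197705418, plus strand): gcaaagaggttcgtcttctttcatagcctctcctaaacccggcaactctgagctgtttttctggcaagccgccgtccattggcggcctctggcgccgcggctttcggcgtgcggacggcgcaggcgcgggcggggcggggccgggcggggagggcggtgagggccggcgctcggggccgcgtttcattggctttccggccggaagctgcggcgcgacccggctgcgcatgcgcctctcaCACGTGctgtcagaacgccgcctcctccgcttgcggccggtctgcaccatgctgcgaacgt

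HARS and HARS2 lie head to head on chromosome 5. Their RefSeq starts are 85 bases apart and their windows share 184 bases, which is why both are printed. The ETS core CCGGAAGT, or ACTTCCGG on the other strand, was found in 7 of the 30 windows and in 4.11% of all windows, and both HARS windows hold the same 2 matches, in capitals, read on opposite strands.
HARS (chr5:140691321-140691620, minus strand): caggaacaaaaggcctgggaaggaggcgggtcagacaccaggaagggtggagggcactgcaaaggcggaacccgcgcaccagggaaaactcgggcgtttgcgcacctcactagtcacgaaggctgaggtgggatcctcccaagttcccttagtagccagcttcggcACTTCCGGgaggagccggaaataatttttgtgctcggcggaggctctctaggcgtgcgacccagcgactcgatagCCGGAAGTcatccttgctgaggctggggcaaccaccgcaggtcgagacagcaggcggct
HARS2 (chr5:140691205-140691504, plus strand): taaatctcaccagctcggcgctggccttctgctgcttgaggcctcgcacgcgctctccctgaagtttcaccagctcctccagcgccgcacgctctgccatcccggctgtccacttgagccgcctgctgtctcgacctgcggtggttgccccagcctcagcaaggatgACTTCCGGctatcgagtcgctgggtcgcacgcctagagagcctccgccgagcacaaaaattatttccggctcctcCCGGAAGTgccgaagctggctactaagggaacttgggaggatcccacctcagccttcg
From these facing starts HARS fell by 0.42 and HARS2 by 0.16 on the log2 scale, and their count ratio was 1.62, 1.55 and 1.64 in the libraries labelled knockout and 1.82, 1.82 and 2.17 in the libraries labelled WT. In GENCODE 29 the pair shares 437 exon bases, 5.6% of those of HARS and 11.7% of those of HARS2, within which unstranded reads cannot be told apart.

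HARS and HARS2 are among 5 members on chromosome 5, with LARS, RARS and TARS, and all 5 fell (median -0.29). Genes of that chromosome were lower in general, with 46.9% of its 781 tested genes called lower, 14.2% higher and a median of -0.20, against a median of 0.01 for the genes of the other chromosomes. On the other chromosomes 9 of 16 cytosolic genes fell and 2 rose (median -0.19), and 9 of 15 mitochondrial genes fell and 1 rose (median -0.22). With the genes of chromosome 5 left out of the fit as well, 10 cytosolic and 9 mitochondrial genes were called lower. The structural classes of the enzymes had similar counts. Of the 18 class I genes 12 fell and 1 rose (median -0.20), and of the 17 class II genes 10 fell and 2 rose (median -0.19), with EPRS, which has a domain of each class, counted in neither. These counts and those of the other chromosomes stand beside 25.9% lower over all genes and 48.3% among genes of at least 50 CPM.

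Genes that work beside the synthetases were counted in 4 lists, to be read against the 25.9% of all genes called lower and 26.7% called higher, and the 48.3% called lower among genes of at least 50 CPM. Of the scaffolds of the multi-synthetase complex, EEF1E1 had 10.9 ± 1.30 CPM in the libraries labelled knockout and 16.3 ± 0.77 CPM in the libraries labelled WT (SD, n = 3 each, log2 fold change -0.57), and AIMP2 fell to 47.5 ± 6.03 CPM in the libraries labelled knockout, against 69.1 ± 0.52 CPM in those labelled WT (-0.54). AIMP2 shares 28.9% of its exon bases with EIF2AK1 on the other strand. AIMP1 did not pass (-0.09, adjusted p = 0.161, edgeR). Of 23 genes for tRNA processing and export 14 fell and 1 rose (median -0.20), and 9 fell with upper-quartile factors and at an adjusted p threshold of 0.01. The ribonuclease P subunits POP1 (-0.90) and RPP40 (-0.43) and the tRNA export receptor XPOT (-0.34) fell most. Of 10 genes that assist charging 3 fell and 1 rose (median -0.09), a share of lower genes near that of all genes. QRSL1, part of the amidotransferase that makes glutaminyl-tRNA in mitochondria, fell (-0.55), as did TARSL2 (-0.47), a relative of TARS, and the editing factor AARSD1 (-0.95), while SEPSECS, of selenocysteine synthesis on tRNA, rose (0.35). AARSD1 lay near 1 CPM and shares 34.2% of its exon bases with PTGES3L-AARSD1. Of 11 mitochondrial translation factors 7 fell and 0 rose (median -0.23), with the release factor MRPL58 (-0.49), the ribosome recycling factor MRRF (-0.44), the elongation factor GFM1 (-0.35) and GFM2 (-0.35) lowest. At an unadjusted p under 0.05 in edgeR 1 gene had a positive change, C12orf65, named after its value was seen, and DESeq2 and limma-voom called 0. After adjustment 1 gene was called higher with upper-quartile factors, the stricter filter, cyclic loess, without KO replicate 2 and without WT replicate 2.

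Genes of the amino acid response were called in both directions. ATF4 itself had 344.7 ± 19.5 CPM in the libraries labelled knockout and 344.5 ± 5.84 CPM in the libraries labelled WT (SD, n = 3 each, log2 fold change 0.00). This is a level of RNA, and the amount and activity of the ATF4 protein were not measured. Of the 27 genes of the list, ATF4 included, 11 fell and 9 rose, against 25.9% lower and 26.7% higher over all genes. The median of the list, 0.00, is the value of ATF4 itself. CTH, which makes cysteine from cystathionine, rose most (1.16), followed by the lipoprotein receptor VLDLR (0.89) and the folate enzyme ALDH1L2 (0.87, near 1 CPM). CBS, the enzyme before CTH in the same pathway, fell (-0.94) but was uneven among the libraries labelled WT (10.1 ± 1.86 CPM in the libraries labelled knockout and 19.1 ± 8.72 CPM in those labelled WT), and has a near-identical copy with which reads can be shared. The transporter genes SLC7A11 (-0.42) and SLC7A5 (-0.31) and the serine enzymes PHGDH (-0.50) and PSAT1 (-0.24) fell, as most synthetases did, while DDIT4 (0.73) and SESN2 (0.38), which restrain mTORC1, rose. ASNS lay at 0.486 ± 0.087 CPM in the libraries labelled knockout and 0.573 ± 0.181 CPM in the libraries labelled WT, and shares 44.6% of its exon bases with AC079781.5, so its level is uncertain. Of 7 genes that act on the kinase arm of the response 5 fell and 1 rose (median -0.16). The phosphatase subunits PPP1R15A (-0.51) and PPP1R15B (-0.33), the kinases EIF2AK2 (-0.17) and EIF2AK4 (-0.16) and GCN1 (-0.11) fell. EIF2AK1 rose (0.18), and EIF2AK3 did not pass (-0.16, adjusted p = 0.087, edgeR). The count of those that fell was 3 without KO replicate 3, without WT replicate 3, with upper-quartile factors, with cyclic loess and at an adjusted p threshold of 0.01. Of 8 measured interferon gamma response genes, the list that bears on WARS, 4 rose, GBP2 (1.59), PSMB9 (0.40), IRF1 (0.40) and TAP1 (0.23), and 0 fell (median 0.14; 0 also at an unadjusted p under 0.05 in edgeR, and 0 by DESeq2 and limma-voom).

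**Figure D4:**
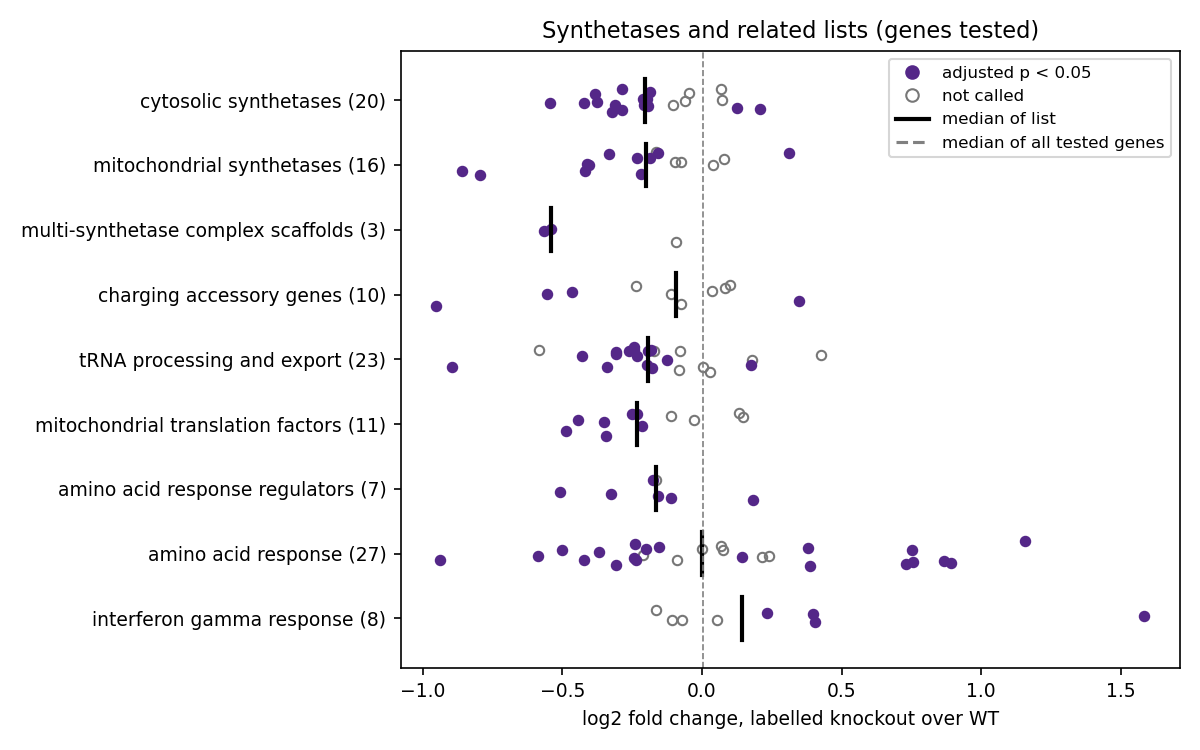
Log2 fold change of each tested gene (points, filled where adjusted p was below 0.05) in 9 lists, libraries labelled knockout over those labelled WT, with the median of each list (black bar) and of all tested genes (dashed line). The medians of both synthetase lists lie at -0.20, and those of the amino acid response and the interferon gamma response at 0.00 and 0.14.

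The authors' deposited table lists all 36 genes. Cytosolic genes in the authors' deposited table numbered 14 lower and 1 higher, and mitochondrial genes 9 lower and 1 higher, at an adjusted p threshold of 0.05, where 13.4% of its 29015 genes were lower and 12.4% higher. The call was the same as here for 33 of the 36 genes. The authors' deposited table called NARS lower and did not call WARS or HARS2.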

How the data were processed

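RNA was taken with a column kit and made into libraries with an NEBNext Ultra kit, per the labels' protocols, a kit without strand information. The submitters' processing notes name fastp, HISAT2, STAR, DESeq, GRCh38 and hg38. What each tool did, and how reads were counted, is not given in the sources used here. The main table deposited by the authors holds raw counts. The ID, position and merged exon length of all 36 genes equal those of GENCODE release 29. A second table deposited by the authors holds their log2 fold changes and p-values, used only where named as theirs. Gene length in bases is another deposited column.

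The test was the two-sided quasi-likelihood test of edgeR 4.0.16 in R 4.3.3, with no covariate, scaling by TMM, and genes kept by filterByExpr at a minimum count of 10 and a minimum total of 15. Benjamini-Hochberg adjustment of p-values ran over all 16655 genes tested. Standard errors came from the F statistic. Library totals were 19088927 to 28612621 counts, with a biological coefficient of variation of 0.0498. No 2 libraries of a group agreed within sampling noise (chi-square over its degrees of freedom 2.44 to 6.17).

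The members and lists were chosen with earlier results of these data known. Full values are given for members called with a log2 change of at least 0.5, for the highest and lowest of each compartment, and for pairs called in opposite directions; HARS, HARS2, WARS and others were named after their values were seen. Of each other list up to 4 called genes with the largest changes are named, and further ones were likewise named after their values were seen. Alternatives comprised 3 other scalings (size factors from DESeq2, upper-quartile factors, cyclic loess with limma-trend 3.58.1), 2 other filters (none, or at least 50 counts in 3 libraries), 2 other tests (limma-voom, DESeq2 1.42.0), a replicate block, each library left out, a threshold of 0.01, and chromosome 5 left out.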

Additional observations from a re-analysis of the deposited data

How the results depend on the processing

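The main counts were 13 lower and 2 higher cytosolic genes and 10 lower and 1 higher mitochondrial genes. Across all alternatives the cytosolic genes called lower ranged from 9 (cyclic loess) to 14 and the mitochondrial ones from 8 to 11. Cytosolic genes called higher were 1 at an adjusted p threshold of 0.01, 1 with no filter and 4 with cyclic loess. Their count was 3 with upper-quartile factors, 3 with the stricter filter and 1 to 2 with each library left out. Mitochondrial genes called higher were 2 with the stricter filter, upper-quartile factors and cyclic loess. The cytosolic median was -0.18 with the stricter filter, -0.15 with upper-quartile factors and -0.088 with cyclic loess, and the mitochondrial median -0.15 with upper-quartile factors and -0.16 with cyclic loess; the cause was not tested. No scaling moved the median of all genes by more than 0.06. The replicate numbers in the titles share only a number (correlations of same-numbered deviations 0.012, -0.011 and -0.062), and with a replicate block the counts were 13 and 2 cytosolic and 10 and 1 mitochondrial, as without it. Without SARS2 and VARS2, which share over 20% of their exon bases, an alternative chosen after seeing the data, 8 mitochondrial genes were lower. Of 571 single-gene values under the alternatives 536 kept direction and call, 19 lost the call, 11 gained it and 5 changed sign, none of these with an adjusted p below 0.05. The sign changes were QARS with upper-quartile factors (0.00974) and cyclic loess (0.0574), SARS with cyclic loess (0.0465), and RARS2 without KO replicate 1 (-0.0418) and without WT replicate 3 (-0.0125), where its range over the libraries left out was -0.0418 to 0.1485. Of 288 counts over the other lists 21 moved by over 1.5 times. With 3 libraries a group the pair ratios cannot pass a threshold of 0.05, and weak genes such as SARS2 carry the largest errors.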
